A study of Mus musculus with 19 samples.

Results

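The genes described here are those whose symbols start with Psm, a letter from a to g and a number: the genes of the proteasome, its regulators and its assembly factors. The pattern found 48 of the 16842 gene symbols listed in the study's count tables, and all 48 were listed in each of the 3 sets of libraries and were abundant enough to be tested in every comparison. They fall into the 7 core alpha subunits, the testis alpha form Psma8, 7 constitutive and 3 immunoproteasome beta subunits, 6 ATPases, 11 other regulatory-particle subunits, 4 activators, the inhibitor Psmf1 and 7 assembly factors. The remaining gene, Psmc3ip, matches the pattern by its name only: it encodes a partner of the ATPase gene Psmc3 that works in meiotic recombination, and it is no proteasome subunit. The thymic beta subunit gene Psmb11 was not analysed here.

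The study sequenced 19 mouse bone marrow RNA libraries to follow mutant ASXL1, a chromatin regulator that is often mutated in clonal blood disorders. CD11b is a surface protein of myeloid cells. The cells sorted by it came from mice of 4 months (young, with 3 mutant, MT, and 4 wild-type, WT, libraries) and of 18 months (old, with 3 MT and 3 WT). LK cells are lineage-negative, c-Kit-positive blood progenitors, and they came from mice of 18 months (3 MT and 3 WT). The labels name the genotypes only as MT and WT: the Asxl1 allele, what drives it, the sex, and whether the replicates are separate animals are not given, so the p-values measure the spread between these libraries, which may be technical.

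The libraries held 26251822 to 38347903 gene counts in the young set, 41909460 to 68260809 in the old set and 31853263 to 59882448 in the LK set. Asxl1 itself stood at 97.3, 92.4 and 95.6 CPM in the MT libraries and 106, 116 and 117 CPM in the WT libraries in LK cells, where CPM is the count per 1000000 counted reads, scaled with TMM factors over all 19 libraries. In old CD11b cells its groups overlapped (284.6 to 296.7 CPM in MT and 278.5 to 305.4 in WT), and in young cells they met (201.6 to 204.6 and 204.1 to 235.8). Without the allele this does not check the genotype. Between old CD11b WT and LK WT libraries cell markers followed the labels. The 7 myeloid markers summed to 88490 to 111300 CPM and to 1277 to 1814 CPM, and the 5 progenitor markers to 165.7 to 168.5 and to 952.3 to 965.5 CPM. Young CD11b WT libraries lay between them, at 25770 to 35050 CPM for myeloid and 385.0 to 481.0 CPM for progenitor markers. The 5 proliferation genes summed to 2321 to 2474 CPM in young CD11b, 1983 to 2096 in old CD11b and 2714 to 3010 in LK WT libraries. The CD11b fractions thus held transcripts of dividing cells too. In each group of 18-month mice, replicates 2 and 3 were closer to each other than to replicate 1: the chi-square of their gene counts, divided by its degrees of freedom, was 3.02 to 6.79, against 14.7 to 48.4 for pairs with replicate 1 and 11.2 to 74.2 for young pairs. Sampling alone gives about 1. Values above it do not tell separate animals from separate libraries of 1 animal. The libraries were treated as separate, and counts of calls that depend on this are given below. Young MT replicate 3 and young WT replicate 4 had the reverse pattern of Xist and Ddx3y from the other young libraries and the same pattern as all old and LK libraries.

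The proteasome degrades proteins that carry ubiquitin chains. Its barrel-shaped core is built of outer alpha rings, which gate the entrance, and inner beta rings, in which Psmb5, Psmb6 and Psmb7 carry the cutting sites. In blood cells and under interferon these are exchanged for Psmb8, Psmb9 and Psmb10, the immunoproteasome subunits, which favour peptides that fit MHC class I. A regulatory particle of ATPases (Psmc genes) and other subunits (Psmd genes) binds, strips and unfolds the substrate, while the activators Psme1 to Psme4 open the core without ubiquitin, and dedicated chaperones assemble the whole.

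Proteasome transcripts were lowest in young CD11b cells, higher in old CD11b cells and highest in LK cells for the constitutive core, the ATPases and the other regulatory subunits. Per kilobase of the principal annotated transcript, the 7 core alpha genes averaged 48.04 ± 0.43 CPM in young WT libraries (SD, n = 4). In old WT they stood at 74.3 ± 5.3 (n = 3) and in LK WT libraries at 129.6 ± 8.8 (n = 3). The corresponding levels of the 7 constitutive beta genes were 52.3 ± 2.1, 84.1 ± 7.6 and 136 ± 9.1 CPM per kilobase. The ATPases followed the same order at 33.2 ± 1.6, 53.3 ± 3.8 and 99.4 ± 5.1, and the other regulatory subunits at 32.7 ± 0.81, 45.8 ± 1.5 and 84.9 ± 3.6 CPM per kilobase. WT libraries of these 4 classes did not overlap between any of the 3 cell groups.

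Immunoproteasome genes kept that order in their means, but the old and LK WT libraries overlapped. Psmb8, Psmb9 and Psmb10 averaged 35.2 ± 2.7 CPM per kilobase in young WT, 54.7 ± 1.2 in old WT and 56.4 ± 8.003 in LK WT libraries, so the old and LK groups lay within each other's spread. Assembly genes were the lowest class of several genes, at 8.61 ± 0.50, 11.4 ± 0.94 and 32.8 ± 2.2 CPM per kilobase, and as a ratio of LK to old CD11b cells they differed most of these classes. The means of the MT groups held the same order in every one of these classes: core alpha genes averaged 49.4 ± 1.7, 71.8 ± 1.8 and 145 ± 7.1 CPM per kilobase (SD, n = 3 each). In MT the immunoproteasome genes were higher in LK than in old CD11b libraries without overlap, at 66.3 to 68.3 against 51.6 to 59.8 CPM per kilobase. In such sorted fractions, a change in the cells that make up the fraction and a change in RNA per cell cannot be told apart.

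Psma8, the alpha subunit of the testis-specific proteasome of germ cells, was the member with the largest difference between genotypes, and it was lower in MT libraries of all 3 sets. Its raw counts were 16, 21 and 8 in the young MT and 41, 36, 68 and 36 in the young WT libraries, which is 0.554, 0.621 and 0.276 against 1.51, 1.26, 1.81 and 1.38 CPM. In old CD11b cells 8, 9 and 3 reads were counted in MT and 12, 19 and 45 in WT libraries. LK cells held more of it, with 171, 154 and 203 reads in MT and 350, 441 and 350 in WT libraries, or 2.86, 2.48 and 2.88 against 6.01, 6.77 and 8.54 CPM. In each set every MT library lay below every WT library.

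On the log2 scale Psma8 differed by -1.61 ± 0.31 (SE) in young, -1.91 ± 0.52 in old and -1.40 ± 0.16 in LK cells, or 3.05-fold, 3.76-fold and 2.64-fold lower in MT. Only the LK difference passed the test after adjustment over all genes (edgeR quasi-likelihood, Benjamini-Hochberg adjusted p = 0.00627); the adjusted p was 0.837 in young and 0.142 in old cells, with unadjusted values of 0.000428 and 0.00565. DESeq2 called it in young cells (adjusted p = 0.0248). On log2 CPM, the exact permutation test (two-sided) gave 0.0571 in young, 0.1 in old and 0.1 in LK cells, each the smallest p that these group sizes allow. In LK cells 12 of 14 alternative analyses kept it under 0.05, the adjusted p running from 7.96e-13 to 0.175, and the difference was -1.50 (adjusted p = 0.0042) with the trend on transcript length and GC content removed. The difference did not itself differ between ages (-0.30 ± 0.58, adjusted p = 0.953) or between LK and old CD11b cells (0.51 ± 0.50, adjusted p = 0.514) beyond its error.

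Psma8 was a minor species throughout. Relative to Psma7, the alpha subunit whose place it takes, its level per kilobase was 0.0189 ± 0.0045 in LK WT libraries and 0.000715 ± 0.00028 in old MT libraries (SD, n = 3 each). In LK cells Psma7 was not lower in MT: it stood at 215, 241 and 239 CPM in the MT libraries and 223, 196 and 195 CPM in the WT libraries (0.15 ± 0.05, adjusted p = 0.0715). How reads that fit both copies were counted is not given in the sources used here, so the Psma8 counts are uncertain to that degree. Of the 4 genes tested within 1000000 bases of Psma8, none was called in young or old cells, and Taf4b was lower in LK MT cells (-0.32, adjusted p = 0.0252), while Kctd1, Ss18 and Zfp521 lay between -0.04 and 0.09.

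**Figure D1:**
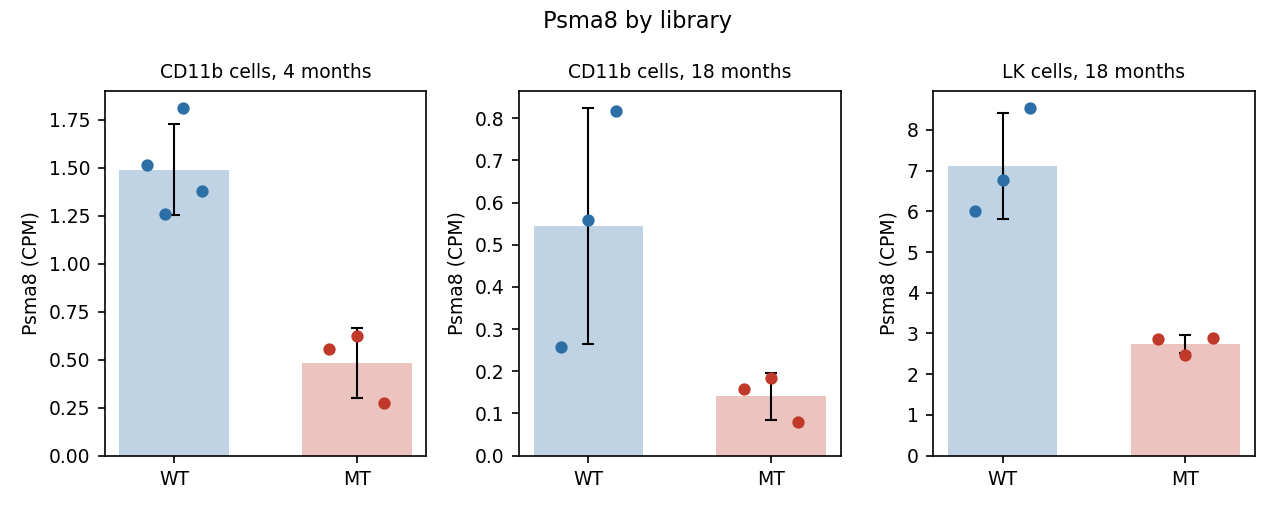
Psma8 level by library in CPM (vertical axes start at 0 and differ between panels), for CD11b cells of 4 and 18 months and LK cells of 18 months. Points are libraries, bars the group mean and whiskers the SD; in each panel all 3 MT points lie below all WT points.

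In young CD11b cells no member passed the test between MT and WT. None of the 48 was called by edgeR, as none of the 13755 genes tested was (0%); 1 member, Psma8, had an unadjusted p under 0.05, and DESeq2 called 1. The median log2 difference of the members was 0.01, against -0.01 for all genes tested, and every member other than Psma8 lay between -0.08 and 0.15. Psma7 was the alpha gene with the smallest p and the largest rise, at 92.7, 91 and 92.2 CPM in the MT libraries and 80.9, 89.6, 89.1 and 86.2 CPM in the WT libraries (0.09 ± 0.06, adjusted p = 0.999); its groups did not overlap. Psma3 had the largest fall of the alpha genes, at 43.2, 43.6 and 37.7 CPM in the MT libraries and 45.5, 41.8, 40.7 and 40.1 CPM in the WT libraries, and its groups overlapped.

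The other classes were as flat. Psmb2 led the constitutive beta genes by p and by rise, at 53.7, 53.1 and 53.01 CPM in the MT libraries and 48.96, 53.04, 52.8 and 46.1 CPM in the WT libraries (0.08 ± 0.07), and Psmb4 had the largest fall (-0.01 ± 0.06), with 72.6, 77.2 and 75.3 CPM in the MT libraries and 79.6, 76.5, 75.8 and 71.1 CPM in the WT libraries. Of the ATPases, Psmc6 was the furthest up, at 57.7, 58.8 and 64.5 CPM in the MT libraries and 56.01, 54.8, 54.1 and 59.7 CPM in the WT libraries (0.10 ± 0.06), and Psmc1 the furthest down (-0.02 ± 0.06), at 44.7, 45.1 and 48.7 CPM in the MT libraries and 47.6, 48.7, 44.9 and 45.7 CPM in the WT libraries. None of these had an unadjusted p under 0.05.
The ubiquitin receptor gene Psmd4 stood at 50.8, 50.4 and 53.5 CPM in the MT libraries and 51.1, 55.9, 54.7 and 56.6 CPM in the WT libraries (-0.08 ± 0.06), the smallest p and largest fall of the Psmd subunits, and the scaffold gene Psmd1 had their largest rise (0.05 ± 0.06), at 97.05, 94.3 and 94.05 CPM in the MT libraries and 97.3, 95.8, 86.8 and 88.6 CPM in the WT libraries. Among the assembly genes, Psmd10 had the smallest p, at 17.2, 16.8 and 16.8 CPM in the MT libraries and 16.3, 15.6, 15.2 and 16.2 CPM in the WT libraries (0.10 ± 0.07), without overlap. Without overlap, 2 members were higher and 1 was lower in young MT cells, where 2.26% and 2.18% of all genes tested were. Psmg3 was the furthest up of its class, at 8.07, 7.31 and 6.01 CPM in the MT libraries and 7.53, 6.10, 6.27 and 5.75 CPM in the WT libraries (0.15 ± 0.14), and Psmg2 the furthest down, at 9.94, 9.02 and 9.87 CPM in the MT libraries and 10.97, 9.53, 10.5 and 8.93 CPM in the WT libraries (-0.06 ± 0.10); both overlapped. Removing the libraries of the other sex-linked pattern, or a covariate for it, also left no member called.

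In old CD11b cells most members were slightly lower in MT, and none passed the test. edgeR called 0 of the 48 members and 0.336% of the 13398 genes tested, and DESeq2 called 0 members and 4.13% of all genes. The unadjusted edgeR p was under 0.05 for 4 members (Psma8, Psmd3, Psmd4 and Psmd13, all lower in MT) and for 2230 genes. The median of the members was -0.05, against 0.00 for all genes. Apart from Psma8 the members lay between -0.14 and 0.08. The lid subunit gene Psmd13 had the smallest p of the Psmd subunits and their largest fall, with 112, 111 and 109.9 CPM in the MT libraries and 115, 123 and 127 CPM in the WT libraries (-0.13 ± 0.05, adjusted p = 0.223). Its groups did not overlap, and Psmd7, the furthest up of that class (0.07 ± 0.05), overlapped at 37.6, 39.96 and 39.5 CPM in the MT libraries and 35.9, 37.2 and 38.2 CPM in the WT libraries.

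Psma7 had the largest fall of the alpha genes, at 113, 103 and 103 CPM in the MT libraries and 109, 116 and 119.5 CPM in the WT libraries (-0.12 ± 0.06), and Psma5 the largest rise (0.08 ± 0.07), at 47.1, 48.99 and 48.4 CPM in the MT libraries and 45.4, 41.1 and 49.6 CPM in the WT libraries. Among beta genes Psmb3 had the smallest p, at 102, 98.6 and 92.9 CPM in the MT libraries and 96.3, 109.6 and 109.6 CPM in the WT libraries (-0.11 ± 0.06), and Psmb7 the smallest fall (-0.02 ± 0.07). The chymotrypsin-like subunit gene Psmb5 had the largest fall (-0.14 ± 0.12). All of these groups overlapped.
Psmc1 was the lowest ATPase relative to WT (-0.12 ± 0.06), at 91.1, 91.04 and 89.2 CPM in the MT libraries and 90.1, 102 and 103 CPM in the WT libraries, and Psmc6 the highest (0.03 ± 0.06), at 75.4, 81.8 and 74.7 CPM in the MT libraries and 70.6, 78.2 and 76.8 CPM in the WT libraries. The assembly gene Psmd9 was lower in every MT library, by a narrow margin from WT replicate 1, at 14.5, 14.5 and 14.1 CPM in the MT libraries and 14.5, 15.6 and 15.9 CPM in the WT libraries (-0.10 ± 0.07, adjusted p = 0.478), and Psmg2 was the furthest up (0.08 ± 0.12), at 8.87, 8.76 and 10.2 CPM in the MT libraries and 7.29, 9.59 and 9.40 CPM in the WT libraries. Without overlap, 1 member was higher and 5 were lower in MT, where 11.1% and 11.5% of all genes tested were.

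The count in old cells rests on WT replicate 1. That library was the lowest of its group for 41 of the 48 members, and the share of all genes for which it was lowest was not counted. Without it 11 members were called, all lower in MT, where 13.3% of the 13663 genes then tested were called. With replicates 2 and 3 of both groups only, an alternative chosen after seeing the data, 1 member, Psme3, was called higher and 29 lower, and 38.5% of all genes were called. In Psmb3 and Psmc1, for example, WT replicate 1 lay inside the range of the MT libraries and the other WT libraries above it.

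In LK cells 23 of the 48 members were called, 20 higher and 3 lower in MT, where 29.8% of the 14113 genes tested were called (13.9% higher, 15.9% lower). The rises were small, from 0.12 to 0.35 on the log2 scale, with a median of 0.13 over all members against 0.02 over all genes. They were most frequent in the beta rings and the assembly factors: 6 of 7 constitutive beta genes, 2 of 3 immunoproteasome genes and 5 of 7 assembly genes were called higher, against 1 of 7 alpha genes, 2 of 6 ATPases and 2 of 11 other regulatory subunits. The activators split, with Psme1 and Psme2 higher and Psme3 and Psme4 lower. Psmf1 was not called. The third member called lower was Psma8. Leaving out WT replicate 1 gave 31 members and 38.8% of all genes, and leaving out MT replicate 1 gave 25 members and 35.9%. Without MT replicate 2, MT replicate 3, WT replicate 2 or WT replicate 3 there were 2 in each case, Psma8 and Psmb1, with 6.87% to 8.28% of all genes called.

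**Figure D2:**
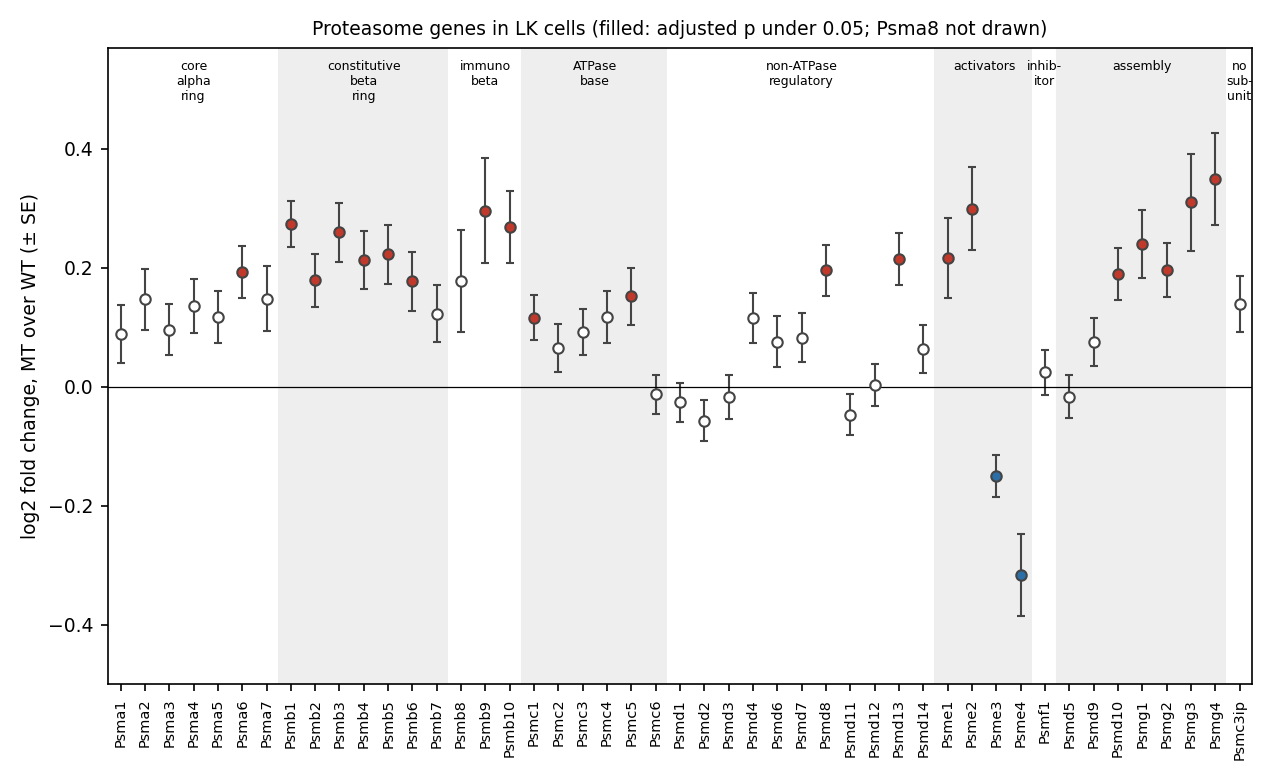
log2 difference between MT and WT LK libraries with its SE for 47 members by class, Psma8 left out (its value was -1.40). Filled points passed an adjusted p of 0.05, red for higher and blue for lower in MT; 20 of the filled points lie above 0 and 2, Psme3 and Psme4, below.

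Psmb1, a non-catalytic beta subunit, had the smallest p of the rises, with 210.5, 227 and 221 CPM in the MT libraries and 188, 173 and 173 CPM in the WT libraries (0.27 ± 0.04, edgeR adjusted p = 0.00627). Every MT library exceeded every WT library, and WT replicate 1 was the highest of its group. Psmb5 stood at 69.2, 76.2 and 73.1 CPM in the MT libraries and 66.4, 59.5 and 57.7 CPM in the WT libraries (0.22 ± 0.05, adjusted p = 0.0154). Psmb6, the caspase-like subunit, stood at 137, 151 and 147 CPM in the MT libraries and 136, 123 and 118 CPM in the WT libraries (0.18 ± 0.05, adjusted p = 0.0318), its lowest MT library only just above the highest WT library. Psmb7, the trypsin-like subunit, was the constitutive beta gene that was not called, at 159, 177 and 171 CPM in the MT libraries and 164, 147 and 146 CPM in the WT libraries (0.12 ± 0.05, adjusted p = 0.0883), with WT replicate 1 inside the MT range.

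Of the immunoproteasome genes Psmb9 and Psmb10 were higher in MT, and Psmb8 was not called. Psmb9 stood at 65.2, 64.4 and 66.6 CPM in the MT libraries and 61.7, 46.8 and 48.2 CPM in the WT libraries (0.30 ± 0.09, adjusted p = 0.0384). For Psmb10 the levels were 74.7, 79.3 and 78.8 CPM in the MT libraries and 70.7, 58.7 and 60.01 CPM in the WT libraries (0.27 ± 0.06, adjusted p = 0.0151). Psmb8 was at 152, 156 and 155 CPM in the MT libraries and 158, 124 and 119.9 CPM in the WT libraries (0.18 ± 0.09, adjusted p = 0.156), and WT replicate 1 exceeded every MT library. Psmb8 and Psmb9 sit beside each other in the MHC region (mm10 chr17:34197721-34201454 on the plus and chr17:34181987-34187764 on the minus strand), and an exon of Psmb9 overlaps Tap1 on the other strand. Whether strand was used in counting is not given in the sources used here, so reads of Psmb9 and Tap1 may not be separable.

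The interferon-inducible activator genes Psme1 and Psme2, whose products form the mixed ring PA28, lie next to each other (mm10 chr14:55578123-55581529, plus strand, and chr14:55587441-55591113, minus strand). Psme1 stood at 187, 195 and 198 CPM in the MT libraries and 186, 154 and 149 CPM in the WT libraries (0.22 ± 0.07, adjusted p = 0.0437). Psme2 stood at 129.7, 143 and 141 CPM in the MT libraries and 124, 99.5 and 106 CPM in the WT libraries (0.30 ± 0.07, adjusted p = 0.0172). Both were higher in all MT libraries, Psme1 by a narrow margin over WT replicate 1.
Psme3, the nuclear activator, went the other way, at 231, 247 and 245 CPM in the MT libraries and 263, 263 and 262 CPM in the WT libraries (-0.15 ± 0.04, adjusted p = 0.0171). So did Psme4, the large PA200 activator known from histone degradation, at 95.9, 98.8 and 98.7 CPM in the MT libraries and 107, 127 and 123 CPM in the WT libraries (-0.32 ± 0.07, adjusted p = 0.0141). Neither pair of groups overlapped, and each of the 2 genes kept an adjusted p under 0.05 in 7 of 14 alternative analyses, up to 0.233 for Psme3 and 0.327 for Psme4. Psmf1, the inhibitor that binds the core ends, stood at 73.8, 71.1 and 73.1 CPM in the MT libraries and 70.7, 70.6 and 68.8 CPM in the WT libraries (0.02 ± 0.04, adjusted p = 0.667).

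In the alpha ring Psma6 was the member called, at 192, 209 and 208 CPM in the MT libraries and 186, 169 and 167 CPM in the WT libraries (0.19 ± 0.04, adjusted p = 0.0149). The other 6 alpha genes were higher in MT by 0.09 to 0.15 with adjusted p-values from 0.0544 to 0.199, and Psma1 was the least changed, at 181, 203 and 199 CPM in the MT libraries and 191, 177 and 169 CPM in the WT libraries. Of the ATPases, Psmc5 had the smallest p, at 139.8, 148 and 149 CPM in the MT libraries and 139.98, 124 and 121 CPM in the WT libraries (0.15 ± 0.05, adjusted p = 0.0448), with 1 WT library inside the MT range. Psmc1 was also called (0.12 ± 0.04, adjusted p = 0.0485), and Psmc6 was the least changed, at 127, 132 and 129.8 CPM in the MT libraries and 129.8, 128 and 126 CPM in the WT libraries (-0.01 ± 0.03).

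Psmd13 and Psmd8, both lid subunits, were the regulatory subunits called. Psmd13 stood at 156, 171 and 173 CPM in the MT libraries and 149, 137 and 136 CPM in the WT libraries (0.21 ± 0.04, adjusted p = 0.0117), and Psmd8 differed by 0.20 ± 0.04 (adjusted p = 0.0138). The base scaffold gene Psmd2 had the largest fall of the class, at 323, 336 and 347 CPM in the MT libraries and 354, 338 and 334 CPM in the WT libraries (-0.06 ± 0.03, adjusted p = 0.247), with overlap.
Psmg4 showed the largest rise of all members, at 22.8, 25.4 and 24.5 CPM in the MT libraries and 21.3, 17.3 and 17.4 CPM in the WT libraries (0.35 ± 0.08, adjusted p = 0.0142). Its partner Psmg3 rose by 0.31 ± 0.08 (adjusted p = 0.0252), and Psmg1 and Psmg2, the other pair of alpha-ring chaperones, by 0.24 ± 0.06 and 0.20 ± 0.05. The base chaperone Psmd10 rose by 0.19 ± 0.04, while Psmd9 (0.08 ± 0.04) and Psmd5 (-0.02 ± 0.04), at 86.5, 89.01 and 90.9 CPM in the MT libraries and 88.3, 86.6 and 89.3 CPM in the WT libraries, did not pass the test. Psmc3ip was not called (0.14 ± 0.05, adjusted p = 0.0574).

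WT replicate 1 was the highest WT library for 44 of the 48 members and lay inside or above the MT range for 26. MT replicate 1 was the lowest MT library for 43. The same was not counted over all genes, so these counts cannot be read as particular to the members. Without overlap, 22 members were higher and 3 lower in MT, where 22.1% and 21.2% of all genes were. The fit of replicates 2 and 3 only, chosen after seeing the data, called 39 (36 higher, 3 lower) and 60.0% of all genes. With replicates 2 and 3 summed to 1 library in each group, no member and 0.0207% of the 14512 genes tested were called. The unadjusted edgeR p in that fit was under 0.05 for 16 members and for 2914 of all genes.

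The LK differences moved with transcript length. Across the genes tested the log2 difference between MT and WT LK libraries had a Spearman correlation of -0.477 with the median annotated transcript length (genes are not independent replicates), and the members are short: their median was 1370 nucleotides, against 2580 for all genes. Among members under 1000 nucleotides, 10 of 10 were called higher, with a median of 0.23; all 1492 genes of that length had a median of 0.23, and 39.1% of them were called higher. Members of 1000 to 1500 nucleotides had a median of 0.14, against 0.15 for the genes of that length, and those of 1500 to 2000 nucleotides 0.09, against 0.09. From 2000 to 3000 nucleotides the medians were -0.01 and 0.02, and from 3000 nucleotides up they were -0.03 for 3 members and -0.12 for all genes. Among the activators, Psme1 and Psme2 have median transcript lengths of 711 and 878.5 nucleotides, Psme3 and Psme4 of 2664 and 6491; Psme3, at -0.15, lay below the median of the genes of its length.

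**Figure D3:**
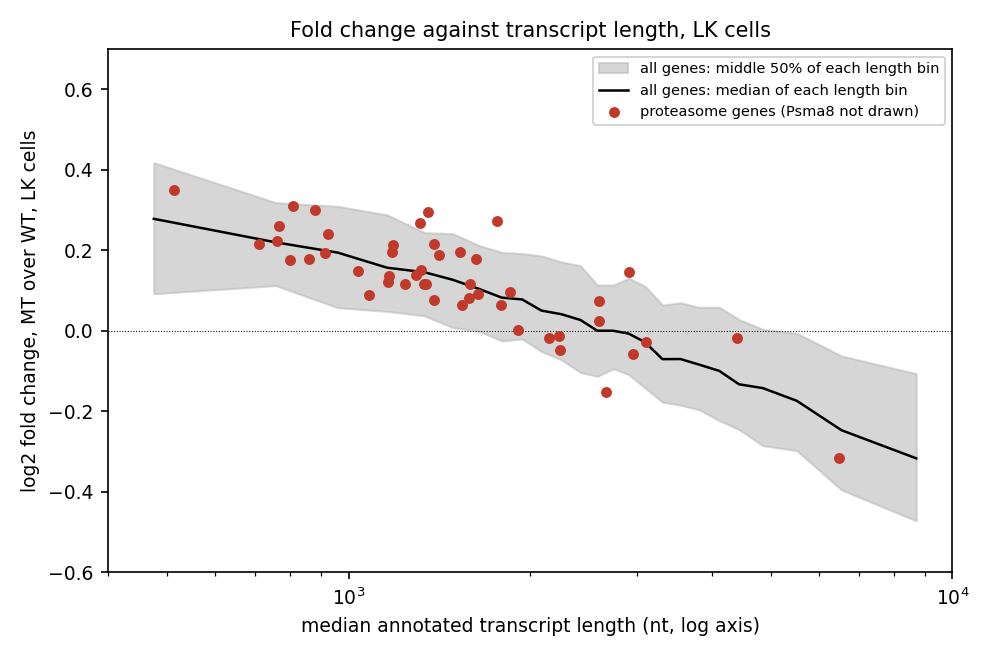
log2 difference between MT and WT LK libraries (vertical axis) against median annotated transcript length in nucleotides (log axis). Red points are 47 members without Psma8, the black line the median and the grey band the middle 50% of all genes in bins of equal size; most members lie near the falling line, with Psmg4 (0.35) at the short end and Psme4 (-0.32) at the long end.

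With a smooth trend on transcript length and GC content taken out of each library, 5 members were called in LK cells in place of 23, with 18.3% of all genes called, and the members' median was 0.01. Psmb1 kept its direction (0.22, adjusted p = 0.0052), as did Psme3 (-0.15, adjusted p = 0.0132) and Psma8. Psma2 (0.19, adjusted p = 0.0427) and Psmd5 (0.14, adjusted p = 0.0313) were called there and not in the main fit. Over the 14 alternative analyses of LK cells, Psma2 was called in 4 and Psmd5 in 1. Psme4 stood at -0.06 (adjusted p = 0.327), and Psmb2, Psmb5, Psmb6 and Psme1 fell to between -0.05 and -0.01. Marker levels moved in LK cells as well. The 7 myeloid markers summed to 1994 to 4109 CPM in MT and 1277 to 1814 CPM in WT libraries (3 of 6 tested, Csf3r, Ly6c2 and S100a8, called higher), and the 5 proliferation genes to 2361 to 2445 and 2714 to 3010 CPM (4 of 5 called lower). Kit and Flt3 of the 5 progenitor markers were called lower. Called higher were 1 of 4 B lineage markers (Cd79b), 1 of 3 T and natural killer markers tested (Nkg7) and 1 of 3 megakaryocyte markers (Pf4). The part of the markers in the proteasome values was not tested.

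Whether the genotype difference depends on the cell type was asked with the interaction of genotype and cell type in the 18-month libraries, which are those of the LK and old comparisons above. It was called for 13 members, where 20.7% of the 13996 genes tested were (8.79% higher, 12% lower). For 11 of them the difference between MT and WT was more positive in LK than in old CD11b cells: Psma7, Psmb1, Psmb3, Psmb4, Psmb6, Psmc1, Psmd4, Psmd8, Psmd13, Psme1 and Psme2. Psmd13 showed the smallest adjusted p (0.34 ± 0.07, 0.00776): it was lower in every old MT library and higher in every LK MT library than in the WT libraries of the same set. Psme3 (-0.22 ± 0.05) and Psme4 (-0.31 ± 0.10) were more negative in LK cells. With the length and GC trend removed 3 members were called, Psmb1, Psmd13 and Psme3, with 10.3% of all genes called. With 1 library left out the count ran from 4 without LK WT replicate 2 or 3 (8.01% and 8.60% of all genes) to 27 without old WT replicate 1 (29.6%). The same interaction with age in CD11b cells was called for 0 members and for 0.0214% of the 14024 genes tested. DESeq2 called 0 members and 0.493% of all genes. The unadjusted edgeR p was under 0.05 for 1 member and for 1035 of all genes.

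Between cell types the differences were larger; this comparison shares its WT libraries with the genotype comparisons. LK WT libraries held more of 39 members than old CD11b WT libraries and less of 3, with 6 not called; 86.8% of the 13710 genes tested were called in this comparison (45.1% higher, 41.7% lower). The median of the members was 0.75, against 0.08 for all genes. With the length and GC trend removed it was 0.67, with 42 members called as before and 87.9% of all genes. All 7 constitutive beta genes and all 6 ATPases were higher in LK cells, from 0.23 (Psmb3) to 1.27 (Psmc5), as were 6 of 7 alpha genes, led by Psma5 at 165, 147 and 146 CPM in LK against 45.4, 41.1 and 49.6 CPM in old CD11b WT libraries (1.65 ± 0.08).

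The assembly chaperones and a few single subunits led the difference. Psmg2 stood at 53.7, 49.04 and 50.3 CPM in LK WT against 7.29, 9.59 and 9.40 CPM in old CD11b WT libraries (2.45 ± 0.10, adjusted p = 4.74e-08), and Psmg1 at 50.6, 44.2 and 43.2 against 9.03, 9.57 and 10.4 CPM (2.15 ± 0.08). Psmg3 and Psmg4 were higher by 1.69 and 1.43, and the base chaperone Psmd9 by 1.97. Psmd10, another base chaperone, was lower (-0.32 ± 0.08, adjusted p = 0.00548). Psmd7, a lid subunit that pairs with the deubiquitinase Psmd14, stood at 184, 171 and 169 against 35.9, 37.2 and 38.2 CPM (2.14 ± 0.05), while Psmd14 itself differed by 0.60 ± 0.05. Psma8 had the largest fold of all members, 11.97-fold (3.58 ± 0.33).

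Regulators differed among themselves. The inhibitor gene Psmf1 stood at 70.7, 70.6 and 68.8 CPM in LK WT against 20.7, 20.5 and 20.6 CPM in old CD11b WT libraries (1.67 ± 0.05, adjusted p = 5.16e-09). Psme3 was higher in LK cells, at 263, 263 and 262 against 119.8, 118 and 118 CPM (1.05 ± 0.04). Psme1 (0.14 ± 0.07) and Psme2 (-0.06 ± 0.08) were not called.
Psme4 was lower in LK cells, at 107, 127 and 123 against 139.98, 123 and 125 CPM (-0.21 ± 0.09, adjusted p = 0.0447), with overlap; without the trend on length and GC it stood at 0.04 (adjusted p = 0.428). Of the immunoproteasome genes, Psmb9 was lower in LK cells (-0.62 ± 0.09, adjusted p = 0.000210), Psmb10 higher (0.47 ± 0.07) and Psmb8 not called (0.01 ± 0.09).

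**Figure D4:**
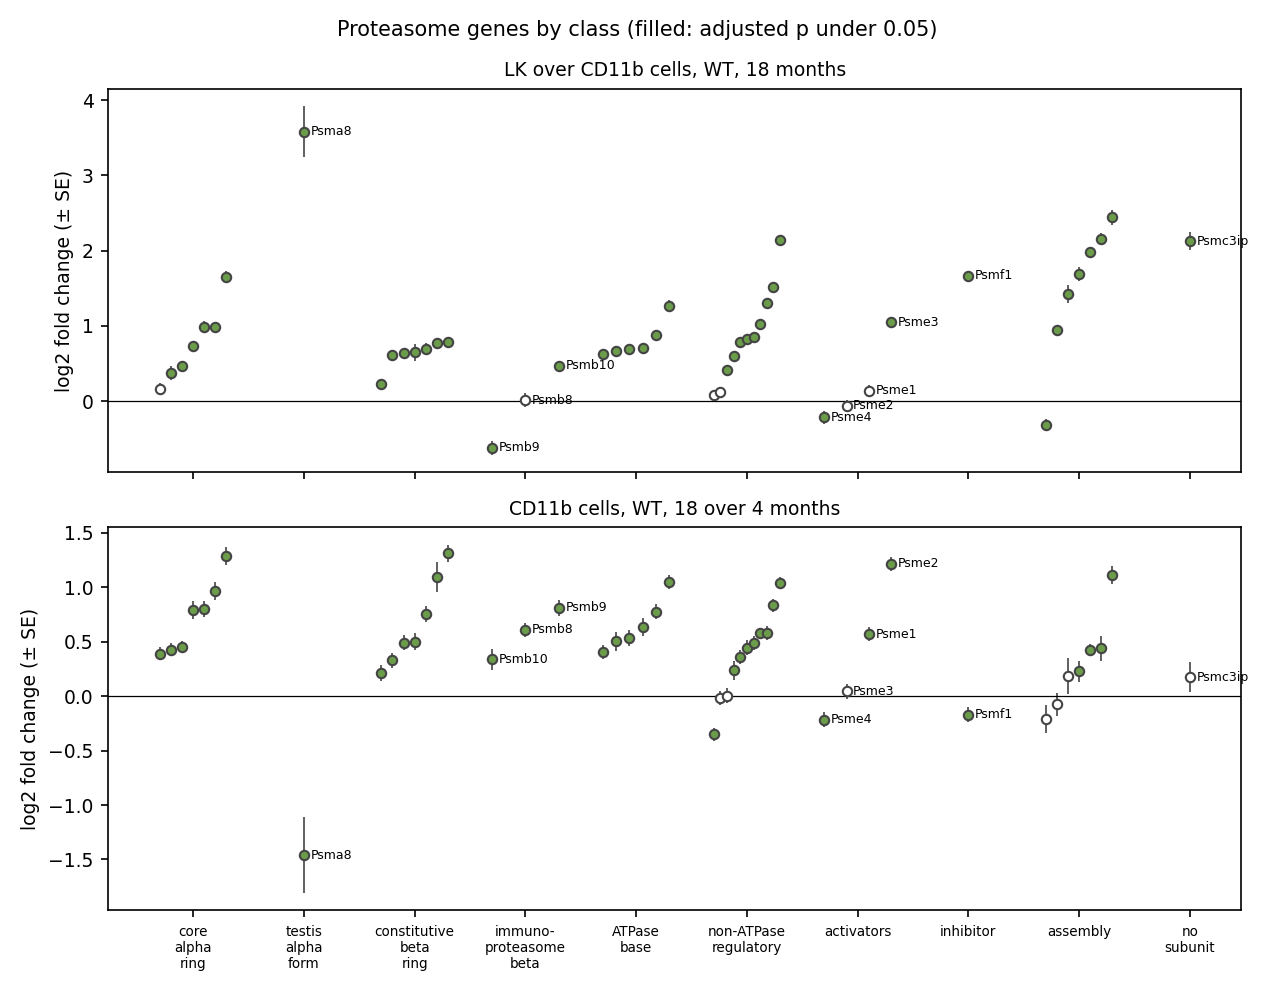
log2 difference with its SE for each member by class, LK over old CD11b WT libraries (upper panel) and old over young CD11b WT libraries (lower panel); the old CD11b WT libraries are in both. Filled points passed an adjusted p of 0.05; most classes lie above 0 in both panels, with Psma8 at 3.58 and at -1.46.

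Between old and young CD11b WT libraries 37 members were higher and 4 lower in old cells, where 73.1% of the 13719 genes tested were called (36.1% higher, 36.9% lower). The members' median was 0.47, against -0.02 for all genes. All 7 alpha, 7 constitutive beta, 3 immunoproteasome and 6 ATPase genes were higher, led by Psmb3 at 96.3, 109.6 and 109.6 CPM in old against 37.8, 46.2, 41.9 and 41.1 CPM in young WT libraries (1.31 ± 0.08, adjusted p = 2.34e-07). Psma5 rose by 1.29 ± 0.08, Psmb5 by 1.10 ± 0.14 and Psmc1 by 1.05 ± 0.07. Among regulatory subunits Psmd13 (1.04 ± 0.06) and Psmd4 (0.84 ± 0.06) rose most, and Psmd11 fell (-0.35 ± 0.06), at 44.7, 45.8 and 47.4 against 58.3, 59.6, 59.2 and 54.6 CPM.

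In the main fit the activators split here as well. Psme2 stood at 102, 106 and 113 CPM in old and 42.7, 47.01, 47.3 and 44.6 CPM in young WT libraries (1.22 ± 0.06, adjusted p = 9.60e-08), and Psme1 rose by 0.57 ± 0.06. Psme3 was not called (0.05 ± 0.07). Psme4 (-0.21 ± 0.07, adjusted p = 0.0206) and Psmf1 (-0.17 ± 0.07, adjusted p = 0.0473) were lower in old cells. With the length and GC trend removed Psme4 was called in the other direction (0.206, edgeR adjusted p = 0.00447). Of the assembly genes Psmd10 (1.11 ± 0.08), Psmg3 (0.44 ± 0.11), Psmd5 and Psmd9 were higher, and Psmg1, Psmg2 and Psmg4 were not called.
Psma8 fell, at 0.257, 0.559 and 0.817 against 1.51, 1.26, 1.81 and 1.38 CPM (-1.46 ± 0.35, adjusted p = 0.00315).

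Age and library set cannot be told apart in this comparison, and of the young WT libraries only replicate 4 shares the sex-linked pattern of the old ones. With a covariate for that pattern 39 members were called (37 higher, 2 lower), with 56.6% of all genes called. The log2 difference also moved with transcript length (Spearman -0.254 across genes). With the length and GC trend removed 36 members were called (30 higher, 6 lower), with 72.6% of all genes called, and the members' median was 0.21. Psmb2, Psmb10, Psmd7 and Psme4 then changed sign. The cells differed too: all 7 myeloid markers were higher in old cells, summing to 88490 to 111300 CPM against 25770 to 35050, and all 5 progenitor markers were lower, at 165.7 to 168.5 against 385.0 to 481.0 CPM. Their part in the proteasome values was not tested.

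Transcripts of the immunoproteasome subunits and of the constitutive ones they replace were compared as the log2 ratio of each pair within a library. Levels were taken per kilobase of the principal annotated transcript. Subunit exchange in the protein itself was not measured. By that length Psmb8 exceeded Psmb5 in every group. The log2 ratios were 1.40 ± 0.14 (SD, n = 4) in young WT, 0.92 ± 0.20 (n = 3) in old WT and 0.27 ± 0.11 (n = 3) in LK WT libraries. Psmb9 was below Psmb6 throughout, at log2 ratios of -1.20 ± 0.11, -0.71 ± 0.14 and -2.03 ± 0.13. Both ratios were lowest in LK cells, with no overlap with either CD11b group. Psmb10 over Psmb7 was flatter, at -1.16 ± 0.18, -1.30 ± 0.12 and -1.45 ± 0.06. Old cells had a lower ratio of Psmb8 to Psmb5 and a higher ratio of Psmb9 to Psmb6 than young cells, without overlap in either. The median transcript lengths within the pairs were 1628 and 760.5 (Psmb8, Psmb5), 1352 and 798 (Psmb9, Psmb6) and 1311 and 1160 nucleotides (Psmb10, Psmb7). These medians are not the principal lengths behind the ratios. Whether Psmb8 exceeds Psmb5 in LK cells depends on which length is used, while differences between groups in a ratio do not. Differences between groups moved with length, and the ratios, here and between genotypes, were not corrected for that trend. Psme1 over Psme2 was 0.81 ± 0.07 in young, 0.17 ± 0.06 in old and 0.36 ± 0.07 in LK WT libraries.

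Genotype moved these ratios little. In MT libraries Psmb8 over Psmb5 was 1.35 ± 0.11 in young, 1.01 ± 0.15 in old and 0.23 ± 0.05 in LK cells (SD, n = 3 each), and Psmb9 over Psmb6 was -1.26 ± 0.19, -0.57 ± 0.07 and -1.91 ± 0.08; all overlapped with WT. Psmb10 over Psmb7 in LK cells was the pair without overlap, at -1.30 ± 0.03 in MT against -1.45 ± 0.06 in WT libraries. Young MT replicate 3 was the lowest of all libraries in that ratio (-1.62).
The levels behind the ratios in CD11b cells were as follows. In young cells Psmb5 stood at 18.5, 18.1 and 15.9 CPM in the MT libraries and 16.02, 19.9, 17.6 and 13.8 CPM in the WT libraries, and Psmb8 at 78.2, 88.8 and 76 CPM in the MT libraries and 77.9, 87.1, 80.2 and 75.3 CPM in the WT libraries. Psmb6 stood at 57.6, 58.96 and 56.9 CPM in the MT libraries and 57.4, 58.2, 57.3 and 55.5 CPM in the WT libraries, and Psmb9 at 40.8, 47.2 and 35.2 CPM in the MT libraries and 44.3, 41.9, 45.4 and 37 CPM in the WT libraries. The young MT and WT groups overlapped for each of these.
Psmb7 stood at 63.8, 64.2 and 68.6 CPM in the MT libraries and 68.3, 65.7, 64.6 and 61.7 CPM in the WT libraries, and Psmb10 at 34.9, 35.1 and 25.3 CPM in the MT libraries and 31.97, 35.6, 37.8 and 27.5 CPM in the WT libraries, again with overlap. In old cells Psmb5 stood at 31.97, 35.02 and 33.2 CPM in the MT libraries and 29.5, 40.7 and 39.4 CPM in the WT libraries, and Psmb8 at 131, 118 and 116 CPM in the MT libraries and 119, 129 and 124 CPM in the WT libraries. WT replicate 1 was the lowest old library for Psmb5. Psmb6 stood at 69.9, 64.99 and 65.8 CPM in the MT libraries and 64.6, 75.9 and 77.4 CPM in the WT libraries. Psmb9, its counterpart, was at 84.4, 73.1 and 72.3 CPM in the MT libraries and 75.1, 74.8 and 75.5 CPM in the WT libraries. Old MT replicate 1 was the highest of the old libraries for Psmb9 and for Psmb10. The levels of Psmb7 were 92.04, 93.8 and 91.2 CPM in the MT libraries and 82.7, 100.01 and 97.5 CPM in the WT libraries. Those of Psmb10 were 47.5, 39.6 and 38.9 CPM in the MT libraries and 41.4, 42.3 and 44.1 CPM in the WT libraries. For each of these genes the old groups overlapped.

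**Figure D5:**
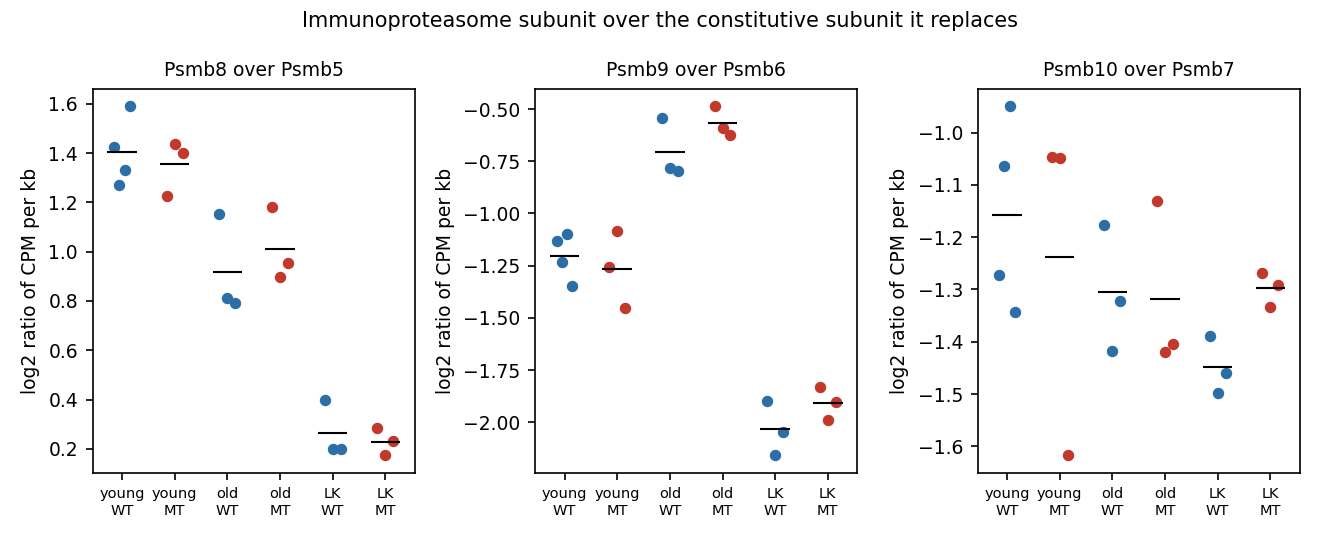
log2 ratio of each immunoproteasome subunit gene to the constitutive one it replaces (CPM per kilobase, vertical axes differ) by library in the 6 groups, WT in blue and MT in red, with the group mean as a line. Psmb8 over Psmb5 falls from about 1.40 in young WT to 0.27 in LK WT, and Psmb9 over Psmb6 is highest in old CD11b cells.

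The activators and the inhibitor in CD11b cells showed no call between genotypes. Young Psme1 stood at 91.3, 99.6 and 93.7 CPM in the MT libraries and 91.01, 92.6, 98.9 and 85.7 CPM in the WT libraries, and Psme2 at 42.2, 47.5 and 46.1 CPM in the MT libraries and 42.7, 47.01, 47.3 and 44.6 CPM in the WT libraries. Psme3 stood at 127, 120.2 and 103 CPM in the MT libraries and 123, 119, 108 and 103 CPM in the WT libraries in that set, and Psme4 at 147, 143 and 152 CPM in the MT libraries and 151, 139, 141 and 162 CPM in the WT libraries. Psmf1 was at 25.8, 20.9 and 20.3 CPM in the MT libraries and 23.9, 23.5, 23.01 and 21.1 CPM in the WT libraries. In the young set the groups of all 5 genes overlapped.
Old Psme1 stood at 134, 124 and 130.2 CPM in the MT libraries and 133, 143 and 139.8 CPM in the WT libraries, and Psme2 at 106, 100.2 and 97.5 CPM in the MT libraries and 102, 106 and 113 CPM in the WT libraries. Psme4 was at 124, 132 and 130.5 CPM in the MT libraries and 139.98, 123 and 125 CPM in the WT libraries, and Psmf1 at 20.9, 20.8 and 19.9 CPM in the MT libraries and 20.7, 20.5 and 20.6 CPM in the WT libraries, with overlap. Psme3 was the member higher in every old MT library, at 121, 127 and 125 CPM in the MT libraries and 119.8, 118 and 118 CPM in the WT libraries (0.06 ± 0.04, adjusted p = 0.431), opposite in sign to its LK difference.

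Of 19 partners and regulators of the proteasome tested in LK cells, 3 were higher and 4 lower in MT, where 13.9% and 15.9% of all genes were, with a median of 0.01. Pomp, the chaperone of the half-core, stood at 145, 163 and 156 CPM in the MT libraries and 131, 113 and 111 CPM in the WT libraries (0.35 ± 0.06, adjusted p = 0.00774), and the small lid subunit Sem1, listed as Shfm1, at 176, 212 and 197 CPM in the MT libraries and 164, 136 and 125 CPM in the WT libraries (0.43 ± 0.09, adjusted p = 0.0141). The deubiquitinase Uchl5 was also higher (0.18 ± 0.05). Ddi2, the protease that activates the proteasome's transcription factor Nfe2l1, stood at 14.1, 12.8 and 12.2 CPM in the MT libraries and 19.6, 25.9 and 25.1 CPM in the WT libraries (-0.88 ± 0.12, adjusted p = 0.00662), and Ecpas (listed as AI314180), Ube3c and Rad23b were lower by 0.11 to 0.29. Nfe2l1 itself was not called (-0.08 ± 0.04, adjusted p = 0.127). None of the 19 was called in young or in old CD11b cells. The LK values of these genes are from the fit without removal of the length and GC trend. In that fit 39.1% of all genes under 1000 nucleotides were called higher, and 32.5% of those from 3000 nucleotides up lower. The part of transcript length in these differences was not tested.

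Rps27a, a ubiquitin gene fused to a ribosomal protein, was higher in LK MT cells (0.39 ± 0.08, adjusted p = 0.0109), and the stress-inducible ubiquitin gene Ubb was not called (0.06 ± 0.08, adjusted p = 0.599). Both were higher in old than in young CD11b WT cells, by 0.97 and 1.43. Between LK and old CD11b WT cells Rps27a was higher (0.95) and Ubb lower (-0.95) in LK cells. Among the genes of peptide supply to MHC class I, Calr, Irf1, Pdia3 and Tapbp were higher in LK MT cells, by 0.18 to 0.29, and Erap1, which trims peptides, was lower (-0.30 ± 0.05). In LK against old CD11b WT cells Tap1 (-0.47), Tap2 (-0.79), Tapbp (-1.21), B2m (-0.91) and Irf1 (-2.30) were lower, as Psmb9 was, while Calr, Canx, Erap1 and Pdia3 were higher. None of these genes was called between genotypes in young or old CD11b cells. Their LK genotype differences, too, are given without removal of the length and GC trend. The partners Txnl1 (1.66), Usp14 (1.92) and Ubqln4 (1.92) were among the 12 of 19 higher in LK than in old CD11b WT cells, and 5 were lower, where 45.1% and 41.7% of all genes were.

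The promoter sequences of the members were searched for 4 motifs. RefSeq (GRCm38.p6, the same assembly as mm10) gave 43 start-site windows of 300 bases, 250 before and 50 after the start, for 40 of the 48 genes. An ETS motif (CCGGAAG, both strands) was in 37.2% of these windows and in 8.86% of all 32851 windows. It lay in 6 of 9 windows of the Psmd subunits, 4 of 6 of the ATPases and in those of Psme3 and Psme4, and in 0 of 4 of the constitutive beta and 0 of 3 of the immunoproteasome genes. The antioxidant response element core TGANNNNGC, the element read by Nfe2l1 and its relatives, was in 58.1% of member windows against 41.3% of all, and in 4 of 4 windows of constitutive beta genes; Psmb1, Psmb2 and Psmb7 had no window. The CCAAT box was in 32.6% against 37.4%, and an interferon-type repeat (GAAA, any 2 bases, GAAA) in 11.6% against 3.44%. Matches are letters only, and the motifs can overlap.

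The following 150-base stretches before the start are examples of these motifs in members called in LK cells, 5 of them higher and Psme3 lower in MT. Capitals mark every match to the 4 motifs on either strand. They are Psmb3 (mm10 chr11:97703249-97703398, plus strand), Psmb5 (chr14:54618023-54618172, minus strand), Psmb6 (chr11:70525207-70525356, plus), Psmg1 (chr16:95990961-95991110, minus), Psmg4 (chr13:34162814-34162963, plus) and Psme3 (chr11:101316063-101316212, plus).
Psmb3: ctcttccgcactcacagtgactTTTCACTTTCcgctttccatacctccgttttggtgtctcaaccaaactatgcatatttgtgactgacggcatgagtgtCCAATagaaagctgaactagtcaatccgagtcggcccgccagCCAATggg
Psmb5: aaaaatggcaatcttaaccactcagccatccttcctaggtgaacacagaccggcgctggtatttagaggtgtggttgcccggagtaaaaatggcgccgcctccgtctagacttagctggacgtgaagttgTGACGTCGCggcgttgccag
Psmb6: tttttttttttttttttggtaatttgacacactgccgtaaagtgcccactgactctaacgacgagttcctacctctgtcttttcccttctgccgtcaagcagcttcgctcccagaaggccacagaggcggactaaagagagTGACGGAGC
Psmg1: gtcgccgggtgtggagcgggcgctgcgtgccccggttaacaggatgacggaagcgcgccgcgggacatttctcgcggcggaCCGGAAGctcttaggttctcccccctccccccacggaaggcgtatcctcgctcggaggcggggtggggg
Psmg4: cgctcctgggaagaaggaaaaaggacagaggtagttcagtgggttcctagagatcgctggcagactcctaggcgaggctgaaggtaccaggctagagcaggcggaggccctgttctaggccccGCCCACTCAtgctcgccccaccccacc
Psme3: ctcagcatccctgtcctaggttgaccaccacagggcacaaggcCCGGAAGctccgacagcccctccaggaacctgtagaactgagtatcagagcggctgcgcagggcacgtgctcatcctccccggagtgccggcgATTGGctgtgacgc
Psmb5 and Psmb6, which give the core its chymotrypsin-like and caspase-like activities, each carry the antioxidant response element core, and Psmg4 carries it on the other strand. Psmg1 and Psme3 carry the ETS motif, and in LK MT cells the first was called higher and the second lower. In the stretch of Psmb3 the capitals are CCAAT boxes and an interferon-type repeat, and its antioxidant match lies in the rest of its window.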

How the data were processed

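RNA from sorted mouse bone marrow cells (200 ng of total RNA) was made into directional libraries, per the labels' protocols. The deposited gene tables hold raw counts per gene symbol, per the file headers and values; the submitters' processing notes name STAR, HTSeq, DESeq2 and mm10, with no versions. Transposable element counts were not used. Strand setting, annotation and handling of multi-mapping reads are not given in the sources used here. The members and lists were chosen with earlier results of these data known.

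Each comparison was fitted on its own libraries with edgeR 4.0.16 (filterByExpr, TMM, robust quasi-likelihood), p-values adjusted over all genes tested (Benjamini-Hochberg) and called under 0.05; the SE is the log2 difference divided by the square root of F. Levels are CPM with TMM factors over all 19 libraries. Transcript lengths came from GENCODE M21, and 97.3% of genes tested in LK cells had one. Levels per kilobase used the principal transcript of each gene, and the length trend used the median over its transcripts. DESeq2 1.42.0, RLE factors, no filter, a replicate block, a fit of all libraries, a length and GC trend (spline, 5 degrees of freedom) and leaving out each library were alternatives. Fits were tested on simulated data. Values in every library were given for the exchange pairs, activators and inhibitor, and for the member of each class with the smallest p, largest rise and largest fall between genotypes; other members by counts and ranges. Same-numbered replicates did not consistently deviate together, so no pairing was assumed, though so few libraries cannot exclude it. Genes with named pseudogenes (Psmb5, Psmb6, Psmb7) or an overlapping gene on the other strand (Psmb9 and Tap1, Psmb7 and Nek6, Psmc3 and Slc39a13, Psmd13 and Sirt3, Psme1 and Emc9, Psma4 and AY074887, Psmd1 and Htr2b) have uncertain counts. Some genes of the ubiquitin and MHC class I lists are not reported here.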

Additional observations from a re-analysis of the deposited data

Results flagged for a closer look

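For 13 members the difference between MT and WT in LK cells differed from that in old CD11b cells by the test of the interaction itself (edgeR adjusted p under 0.05), where 20.7% of all genes tested did. After removal of the trend on length and GC, 3 members and 10.3% of all genes were called, and Psmb6, Psmd4 and Psme4 had changed sign. With the replicate block or with replicates 2 and 3 summed, 0 members and 0% of all genes were called. The interaction on the log2 scale, LK minus old CD11b, was 0.26 for Psma7, 0.31 for Psmb1, 0.36 for Psmb3, 0.32 for Psmb4 and 0.29 for Psmb6 in the core. It was 0.23 for the ATPase Psmc1, and 0.21, 0.28 and 0.34 for the regulatory subunits Psmd4, Psmd8 and Psmd13. Among the activators it was 0.31 for Psme1, 0.38 for Psme2, -0.22 for Psme3 and -0.31 for Psme4. For Psmd13 and Psme3 the MT and WT groups did not overlap in either cell type and were ordered in opposite directions. Without overlap, 11.1% of all genes tested were higher and 11.5% lower in old MT cells, and 22.1% and 21.2% in LK MT cells. The share of all genes that do both in opposite order was not counted. No young WT library stood apart from the other young WT libraries in any member by Dixon's criterion; the other groups hold 3 libraries and were not examined this way.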

How the results depend on the processing

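Counts of members called in LK cells depended on the processing. The 23 calls became 5 with the length and GC trend removed (18.3% of all genes called) and 0 with the replicate block (0.0213%). They became 0 with replicates 2 and 3 summed (0.0207%) and 39 with replicates 2 and 3 only (60.0%). With 1 library left out they ran from 2 to 31 (6.87% to 38.8%). The 13 interaction calls with cell type became 3, 0, 0 and 39 in the same order (10.3%, 0%, 0% and 52.4% of all genes), and ran from 4 to 27 (8.01% to 29.6%). In old CD11b cells replicates 2 and 3 only gave 30 in place of 0 (38.5% of all genes), and leaving out 1 library 0 to 11 (0% to 13.3%). In young cells DESeq2 gave 1 (0.138%). The counts with 1 library left out ran from 41 to 43 for LK against old CD11b WT cells (83.0% to 86.5% of all genes). They ran from 36 to 40 for old against young WT cells (66.3% to 75.9%). For young cells and the interaction with age they ran from 0 to 0 (at most 0.00731% and 0.279%). Removing the length and GC trend left 26 of 48 members positive in LK cells in place of 39, and 31 in place of 42 in the interaction with cell type. Of the members called, it reversed these log2 differences: in LK cells Psmb2 (-0.0216), Psmb5 (-0.00837), Psmb6 (-0.0463) and Psme1 (-0.00767); in LK against old CD11b WT cells Psme4 (0.0378); in old against young WT cells Psmb2 (-0.0131), Psmb10 (-0.0103), Psmd7 (-0.0323) and Psme4 (0.206, adjusted p = 0.00447); in the interaction with cell type Psmb6 (-0.0160), Psmd4 (-0.00244) and Psme4 (0.0289); the cause was not tested. The interaction of Psma8 with age ran from -0.64 to 0.17 with 1 library left out, the positive value without old WT replicate 3. Same-numbered MT and WT libraries did not consistently deviate together (r of 0.27, 0.07 and -0.17 in young, 0.05, 0.03 and -0.01 in old, -0.23, -0.04 and -0.05 in LK cells). Same-numbered LK and old CD11b WT libraries had r of 0.109, 0.00488 and -0.00163, against -0.0819 to 0.0955 for other numbers. With 3 or 4 libraries per group these values cannot exclude pairing or a shared batch, and none was assumed. Under the block the unadjusted edgeR p in LK cells was under 0.05 for 24 members and for 4853 of the 14113 genes. Depth limits Psma8 most, with 3 to 45 counts per old CD11b library.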
